A study of Mus musculus and Rattus norvegicus with 53 samples.

Results

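The D cyclins, their kinase partners CDK4 and CDK6, the CDK inhibitors and RB1 were followed at the RNA level in mouse Schwann cells (SCs) before and after nerve injury. The members were 10 genes picked by symbol from the 24016 genes of the mouse count files: Ccnd1, Ccnd2, Ccnd3, Cdk4, Cdk6, Cdkn1a, Cdkn1b, Cdkn2a, Cdkn2b and Rb1. All 10 had rows in the files and all 10 passed the filter on low counts in both experiments. SCs carried tdTomato, switched on by Cre under a P0 promoter (P0A-Cre) from the Rosa26 locus, and were sorted by its fluorescence, so that only recombined cells, and any other cell with that fluorescence, were collected. The mice were males and females of 6 to 8 weeks with a sciatic nerve cut on one side, and intact nerves were the contralateral ones, so that every group, iSCs included, came from operated tdTomato+ animals. In the pooled experiment each library held the nerves of 3 mice, with 4 libraries of SCs from intact nerves (iSCs), 4 from the distal stump (dSCs) and 4 from the bridge that fills the wound (bSCs), the latter groups 6 days after transection. In the second experiment each library came from a single nerve, with 5 iSC libraries, 3 dSC libraries at each of 6 times (day 1, day 2 and every second day from 4 to 10) and 3 bSC libraries at each of 4 times (every second day from 4 to 10). By the animal given in the labels, bSCs and dSCs of a day mostly came from the same animals, and iSCs of single nerves from others.

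Cells enter the cycle from G1 when D-type cyclins, made in response to mitogens and adhesion, bind CDK4 or CDK6 and start the phosphorylation of RB1, which then releases E2F transcription factors to switch on the genes of DNA replication. The INK4 proteins p15 (Cdkn2b) and p16 (Cdkn2a) bind CDK4 and CDK6 directly, whereas p21 (Cdkn1a) and p27 (Cdkn1b) act on complexes of cyclins with CDKs and chiefly restrain CDK2. The Cdkn2a locus also encodes p19Arf, which acts on the p53 pathway through another reading frame. Mature SCs are quiescent and re-enter the cycle after nerve injury as they lose myelin, and Ccnd1 is known for its role in SC proliferation in the injured adult nerve.

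To show the control regions of the members whose RNA passed a test below, the 250 bases before the annotated RefSeq start were read in build GRCm38.p6, 5′ to 3′ on the strand of the gene. The RefSeq table matched 7 of the 10 members, with 10 starts between them. Ccnd1, Ccnd2 and Rb1 were not matched. Capitals mark matches, on either strand, to any of 8 motifs: the E-box CACGTG, the GC box GGGCGG, the E2F sites TTTCGCGC and TTTGGCGC, the AP-1 site TGANTCA, the cyclic AMP response element TGACGTCA, the CCAAT box CCAAT and the half-site of p53, given by name. The E-box, AP-1 and cyclic AMP motifs read alike on both strands, and none of the matches shown overlaps another.
Cdk4 (chr10:127063285-127063534, plus strand): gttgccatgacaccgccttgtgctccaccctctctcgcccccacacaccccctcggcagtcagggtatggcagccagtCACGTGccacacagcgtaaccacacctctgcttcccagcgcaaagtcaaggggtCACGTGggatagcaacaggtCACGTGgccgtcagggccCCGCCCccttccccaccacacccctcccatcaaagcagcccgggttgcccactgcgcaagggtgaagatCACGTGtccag
Cdkn1a, upstream start (chr17:29090729-29090978, plus strand): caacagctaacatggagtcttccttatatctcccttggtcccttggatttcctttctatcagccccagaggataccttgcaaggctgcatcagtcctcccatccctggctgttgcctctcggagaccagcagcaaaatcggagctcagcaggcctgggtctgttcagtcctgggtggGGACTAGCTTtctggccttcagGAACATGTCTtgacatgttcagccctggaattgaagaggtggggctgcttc
Cdkn1a, downstream start (chr17:29093519-29093768, plus strand): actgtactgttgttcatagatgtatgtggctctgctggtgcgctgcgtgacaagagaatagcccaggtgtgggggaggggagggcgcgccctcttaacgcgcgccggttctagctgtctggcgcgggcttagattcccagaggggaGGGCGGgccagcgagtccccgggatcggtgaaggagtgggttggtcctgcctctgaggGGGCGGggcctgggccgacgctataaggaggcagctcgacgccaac
Cdkn1b (chr6:134920151-134920400, plus strand): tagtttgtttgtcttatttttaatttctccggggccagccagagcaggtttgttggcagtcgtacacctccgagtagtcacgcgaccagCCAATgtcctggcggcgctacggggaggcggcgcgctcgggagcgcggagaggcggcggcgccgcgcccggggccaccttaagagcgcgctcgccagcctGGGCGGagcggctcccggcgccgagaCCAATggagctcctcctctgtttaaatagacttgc
Cdkn2b (chr4:89311033-89311282, minus strand): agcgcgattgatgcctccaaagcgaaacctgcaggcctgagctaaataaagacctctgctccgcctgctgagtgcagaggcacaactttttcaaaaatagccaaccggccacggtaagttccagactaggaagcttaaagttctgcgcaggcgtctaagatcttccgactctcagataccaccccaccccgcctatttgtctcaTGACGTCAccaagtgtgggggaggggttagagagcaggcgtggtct
The Cdk4 window held 4 E-boxes, the sequence bound by MYC and related factors, beside 1 GC box. Of 32851 promoter windows of the same length, 6.02% held at least 1 E-box and 0.0213% held at least 4. The upstream window of Cdkn1a, a classical p53 target, held 2 p53 half-sites, a motif present in 7.13% of the windows, and its downstream window held 2 GC boxes, which 32.7% of the windows hold. The Cdkn1b window held 1 GC box and 2 CCAAT boxes (33.8% of the windows have at least 1 CCAAT box), and the Cdkn2b window held 1 cyclic AMP response element (1.55% of the windows). Matches to the E2F sites (0.256% and 0.417% of all windows) and to the AP-1 site (6.75%) were in none of the member windows. A match, or its lack, describes letters in these windows only, and binding was not measured.

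Between 11435463 and 22617054 reads were counted on genes in the pooled libraries and between 9240883 and 22426128 in the single-nerve libraries. All 12 listed SC markers were measured, and their summed level was from 28677 to 70634 CPM (counts scaled to library size with TMM factors) in pooled iSCs but from 7377 to 33258 CPM in single-nerve iSCs. Macrophage markers, which should be absent from SCs, summed to between 264 and 6276 CPM in pooled iSCs (highest in replicate 5), between 10837 and 18079 CPM in pooled dSCs and between 2646 and 8361 CPM in pooled bSCs. In single nerves the same sum was from 305 to 1406 CPM in iSCs and from 1082 to 15275 CPM after injury. Fibroblast and perineurial markers stood at 9648 CPM or more in every group, and in no injured library was a macrophage or fibroblast marker at 0. A library of bSCs at day 10 carried a title number that disagreed with its animal, and it was kept in its group but left out of pairs. Of the single-nerve libraries, 4 had few detected genes (10042 to 11138) and TMM factors of 0.807 or less: iSC replicates 0 and 1, dSC replicate 1 of day 1 and dSC replicate 0 of day 2. The study removed datasets with few detectable genes and analysed 4 intact single nerves, whereas all 5 iSC libraries were kept here. Which intact nerve the study left out is not stated. In such bulk samples fewer cells of a kind and less RNA per cell cannot be told apart, and the part of other cell types in the results was not tested.

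In pooled iSCs the inhibitor Cdkn1a was the most abundant member per length of exon, at 273 CPM per kb, above Ccnd3 (48.4 CPM per kb), Cdk4 (32.8), Ccnd2 (25.9) and Ccnd1 (25.2), all levels being means of 4 libraries. Cdkn2b (16.0 CPM per kb), Cdkn1b (14.5), Rb1 (4.57), Cdk6 (1.65) and Cdkn2a followed. In pooled dSCs the first place was taken by Ccnd1, at 240 CPM per kb, and in bSCs again by Ccnd1, at 235 CPM per kb with Cdk4 next at 115 CPM per kb. Exons of Ccnd1, Ccnd3, Cdk4 and Rb1 share bases with genes on the opposite strand (Oraov1 in the case of Ccnd1, Bysl in that of Ccnd3, Tspan31 in that of Cdk4, Rcbtb2 and Lpar6 in that of Rb1), and reads there cannot be assigned if strand was not used in counting, which the sources used here do not give.

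The first comparison asked how the G1 machinery differed between dedifferentiated SCs of the distal stump and SCs of intact nerves. Ccnd1 (chr7:152115836-152125774 in mm9, minus strand) stood at 108, 101, 71.6 and 106 CPM in the iSC libraries and at 1078, 1258, 766 and 581 CPM in the dSC libraries. Every dSC library lay far above every iSC library, and Ccnd1 rose from 96.8 ± 17.1 CPM (SD, n = 4) to 921 ± 304 CPM (SD, n = 4), 9.51-fold (log2 fold change 3.25 with an SE of 0.31, and an adjusted p of 0.000438 in edgeR's quasi-likelihood test). The other D cyclins did not pass the test: Ccnd2 had a log2 fold change of 0.62 (95% interval from -0.22 to 1.46) and Ccnd3 one of 0.36 (from -0.12 to 0.85). Their libraries overlapped between the regions. Of the 10 members, 3 had an adjusted p under 0.05 in this comparison, against 5.32% of all 13751 genes tested.

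Cdkn1a (chr17:29227924-29237667 in mm9), which encodes p21, was at 749, 812, 571 and 296 CPM in iSCs and at 169, 205, 190 and 136 CPM in dSCs. The groups did not overlap, although iSC replicate 5, the iSC library with the highest macrophage markers, was closest to the injured ones. It fell 3.48-fold (log2 fold change -1.80 with an SE of 0.35, edgeR's adjusted p = 0.0107). Cdkn2b (chr4:88952198-88956941 in mm9, minus strand), which encodes p15, went the other way, from 14.6, 11.9, 21.7 and 40.7 CPM in iSCs to 77.0, 101, 61.8 and 70.2 CPM in dSCs. Again no dSC library overlapped an iSC library. Its increase was 3.48-fold (log2 fold change 1.80 with an SE of 0.40, edgeR's adjusted p = 0.0215). Blocking on the pool number ended this call for Cdkn2b (log2 fold change 1.92, adjusted p = 0.122 from edgeR), as did 5 of the 12 fits that left out 1 library each (iSC replicates 1, 2 and 4 and dSC replicates 2 and 5), where edgeR's adjusted p was at most 0.0704.

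Members outside the calls included Cdk4, which was above every iSC library in every dSC library (137.9 to 205 CPM against 95.02 to 123 CPM) with a log2 fold change of 0.79 (95% interval from 0.35 to 1.23) and an adjusted p of 0.0623 from edgeR. The p27 gene Cdkn1b was below every iSC library (8.94 to 27.1 CPM against 40.0 to 97.7 CPM), with a log2 fold change of -1.92 and an adjusted p of 0.0977 from edgeR. DESeq2 called both (adjusted p = 0.00620 and 0.0234). Cdkn2a was nearly absent from iSCs, with 6, 0, 0 and 0 counts, and had 75, 32, 20 and 46 counts in dSCs, every one above every iSC library, but with such low counts edgeR's adjusted p was 0.310. The counts of this locus cannot separate p16 from p19Arf. Cdk6 (0.0765 to 10.9 CPM in dSCs, 3.26 to 11.8 CPM in iSCs) and Rb1 (27.3 ± 7.65 CPM against 27.5 ± 8.22 CPM, SD, n = 4 each) overlapped between the regions. In all, 4 members had each dSC library above each iSC library and 2 had each below, where 7.56% and 9.41% of all genes tested did.

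**Figure D1:**
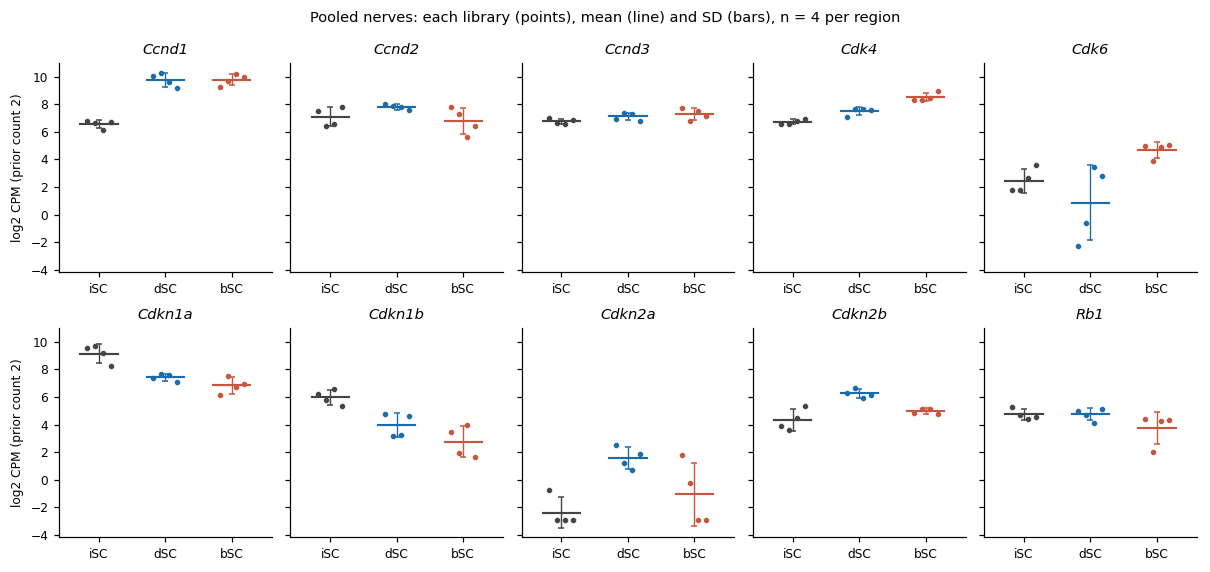
Log2 CPM of the 10 members in the pooled libraries, with 1 panel per gene and iSCs, dSCs and bSCs on the x axis. Points are libraries, horizontal lines means and bars SDs (n = 4); Ccnd1 lies higher in all dSC and bSC libraries, Cdkn1a lower, and Cdk4 is highest in bSCs, where the 4 libraries held 316 to 509 CPM.

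Between bSCs and iSCs, 4 members passed the test, where 14.7% of all genes tested did. Of these members 2 were higher and 2 lower in bSCs, against 7.24% and 7.46% of all genes. Ccnd1 was at 621, 818, 1152 and 1015 CPM in bSCs, again above all iSC libraries. Its 9.31-fold increase (log2 fold change 3.22 with an SE of 0.31, edgeR's adjusted p = 6.19e-05) stood beside the 9.51-fold increase in dSCs, and both were set against the same iSC libraries. Cdk4 (chr10:126500590-126504976 in mm9), the catalytic partner of the D cyclins, was at 97.0, 95.02, 110.3 and 123 CPM in iSCs and at 324, 316, 352 and 509 CPM in bSCs. The groups were far apart, and the increase was 3.52-fold (log2 fold change 1.82 with an SE of 0.23, edgeR's adjusted p = 0.000412). Both p21 and p27 RNA fell. Cdkn1a was at 68.9, 187, 107 and 124 CPM in bSCs (4.99-fold lower, log2 fold change -2.32, adjusted p = 0.00108 from edgeR). Cdkn1b (chr6:134870419-134875531 in mm9) was at 72.8, 53.7, 97.7 and 40.0 CPM in iSCs and at 11.1, 3.66, 15.6 and 3.08 CPM in bSCs, without overlap. It was 7.92-fold lower (log2 fold change -2.99 with an SE of 0.64, edgeR's adjusted p = 0.00729). These 4 calls were made in each of the alternative fits run, including each fit without 1 library.

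Cdk6, which can stand in for CDK4, was scarce in iSCs and higher in every bSC library (31.2, 14.4, 29.3 and 32.2 CPM), with a log2 fold change of 2.12 whose 95% interval was from -0.05 to 4.30 (adjusted p = 0.236 from edgeR). With Ccnd1 and Cdk4 it made 3 members whose bSC libraries were all above the iSC libraries, against 10.5% of all genes, and the 2 inhibitors that fell made 2 below, against 14.5%. Ccnd2 (log2 fold change -0.20), Ccnd3 (0.57, 95% interval from 0.08 to 1.05, adjusted p = 0.146), Cdkn2b (0.49) and Rb1 (-0.76) did not pass edgeR's test. Cdkn2a had 75, 10, 0 and 0 counts in bSCs, with an adjusted p of 0.372 from edgeR.

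The next comparison set bSCs against dSCs, both 6 days after transection, to ask whether the region of the injured nerve mattered. Cdk4 alone of the members passed the test, where 5.43% of all genes did. All bSC libraries (316 to 509 CPM) exceeded all dSC libraries (138, 204, 205 and 189 CPM), and the difference was 2.04-fold (log2 fold change 1.03 with an SE of 0.23, edgeR's adjusted p = 0.0212). Blocking on the pool number left a difference of like size (log2 fold change 1.01) whose adjusted p was 0.0604 from edgeR, and the call was also lost without bSC replicate 5, dSC replicate 1 or dSC replicate 5 (adjusted p from 0.0578 to 0.0621, edgeR). Ccnd1 was not distinguishable between the regions (log2 fold change -0.03, 95% interval from -0.58 to 0.52). Cdkn2b was lower in each bSC library (27.9, 34.6, 35.5 and 27.0 CPM) than in each dSC library (log2 fold change -1.31, 95% interval from -2.08 to -0.54, adjusted p = 0.0704 from edgeR and 0.0123 from DESeq2). Cdk6 was higher in each bSC library (log2 fold change 2.54 with an SE of 1.13, edgeR's adjusted p = 0.208), and its dSC libraries spread from 1 to 147 counts. The 2 members above and 1 below without overlap stood against 6.77% and 8.62% of all genes. Ccnd2 (-0.81), Ccnd3 (0.20), Cdkn1a (-0.52), Cdkn1b (-1.07) and Rb1 (-0.75) had log2 fold changes that missed the test, with edgeR's adjusted p from 0.300 to 0.698.

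**Figure D2:**
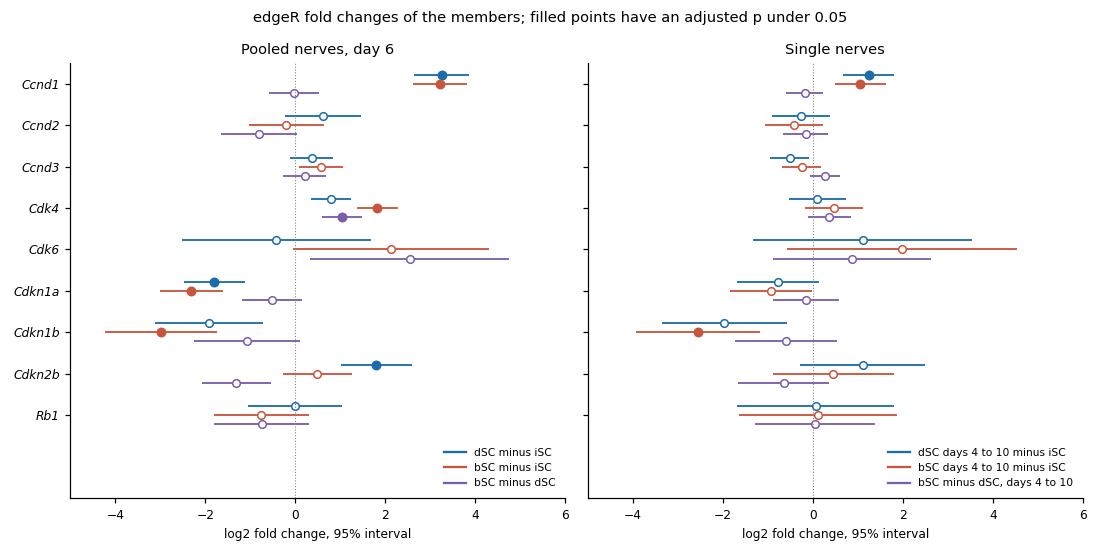
Log2 fold changes of 9 members (Cdkn2a is left out because of its counts at 0) from edgeR, in pooled nerves on the left and single nerves on the right. Lines are 95% intervals (1.96 SE) and filled points have an adjusted p under 0.05; Ccnd1 is filled against iSCs on both sides, while Cdk4, Cdkn1a and Cdkn2b are filled on the left only.

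Genes downstream of RB1 were followed through a list of 24 E2F target and proliferation genes. In pooled dSCs 10 of them passed edgeR's test upward and 0 downward, and their median log2 fold change over iSCs was 1.76, beside -0.02 for all genes tested. In bSCs 20 of the 24 were higher than in iSCs and 0 lower, with a median of 3.84 beside -0.16 for all genes. Tk1, a thymidine kinase of S phase, went from a mean of 0.639 CPM in iSCs to 21.1 CPM in dSCs and 82.5 CPM in bSCs (edgeR's adjusted p = 0.000666 and 6.19e-05). Birc5, the mitotic survivin, was at 5.10, 29.3 and 91.6 CPM in the same order (adjusted p = 0.00764 and 0.000276), and the mitotic kinase Aurkb, with no count in any iSC library, reached means of 15.5 and 76.8 CPM. Directly between bSCs and dSCs, 8 of the list were higher in bSCs and 0 lower (median 1.85 beside -0.07), among them Rrm1 and Rrm2, the subunits of ribonucleotide reductase (log2 fold changes 1.81 and 3.10, adjusted p = 0.00405 and 0.0309 from edgeR), the helicase subunit Mcm6 (2.32, 0.0201) and Uhrf1, which maintains DNA methylation (3.01, 0.0185). In the order dSCs over iSCs, bSCs over iSCs and bSCs over dSCs, edgeR called 5.32%, 14.7% and 5.43% of all genes. These comparisons share libraries, so that their counts are given side by side only.

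Among 25 other regulators of G1 and S phase, 2 were higher in pooled dSCs than in iSCs and 0 lower, namely cyclin A2 (Ccna2, log2 fold change 1.76, adjusted p = 0.0107 from edgeR) and Cks1b (1.80, 0.0415), a cofactor of the ligase that degrades p27. In bSCs 4 were higher and 1 lower than in iSCs. Ccna2 (3.63, adjusted p = 9.53e-05), Cks1b (3.27, 0.000931) and cyclin E2 (Ccne2, 2.36, 0.0327) were higher, and the RB relative Rbl2 was lower (-1.995, 0.0342). Ccna2 also differed between bSCs and dSCs (log2 fold change 1.87, adjusted p = 0.0105), the 1 call of the list there. The list's median log2 fold change was -0.04 in dSCs and 1.02 in bSCs over iSCs, and 0.81 between bSCs and dSCs. For all genes the medians were -0.02, -0.16 and -0.07 in that order. Of all genes edgeR called 5.32%, 14.7% and 5.43% there, so the list's counts alone do not set it apart.

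Of 16 genes that induce D cyclins or read out mitogen signalling, 0 were higher and 3 lower in dSCs than in iSCs: the early response genes Egr1 (log2 fold change -2.18, adjusted p = 0.0421 from edgeR) and Fos (-2.23, 0.0436), and the neuregulin receptor Erbb3 (-2.12, 0.0454). In bSCs 3 were lower, Egr1 (-2.44, 0.0122), Fos (-2.40, 0.0158) and Junb (-2.04, 0.0240), and 1 higher, Ctnnb1 (0.78, 0.0487), which encodes β-catenin. Between bSCs and dSCs, 0 were higher and 1 lower, the receptor feedback inhibitor Spry2 (-1.59, 0.0343). Their medians were -0.50, -1.06 and -0.13 in the order of the comparisons. The cells were digested with enzymes and sorted before RNA was taken, and any part of that handling in these genes was not tested. The p53 pathway, which drives Cdkn1a, was represented by 18 genes, of which 1 was higher and 0 lower in dSCs, 2 higher and 1 lower in bSCs, and 1 higher and 1 lower between bSCs and dSCs. Gadd45a, a stress gene with a role in growth arrest, was at a mean of 17.1 CPM in iSCs, 303 CPM in dSCs and 23.2 CPM in bSCs (adjusted p = 0.000726 for dSCs against iSCs and 0.00274 for bSCs against dSCs, edgeR). Trp53 itself was higher in bSCs than in iSCs (log2 fold change 1.57, adjusted p = 0.00118 from edgeR) and than in dSCs (1.14, 0.0196). Aen was also higher in bSCs than in iSCs (1.41, 0.0431), and Sesn1 was lower (-1.90, 0.0349). The medians of the p53 list were 0.15, 0.27 and -0.04. Beside the counts of both lists, edgeR called 5.32%, 14.7% and 5.43% of all genes in the same comparisons.

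Markers of other cell types moved with the pooled groups as well. Of the 13 macrophage markers, 3 were called higher in dSCs than in iSCs (median log2 fold change 2.31 beside -0.02 for all genes). In bSCs 0 were called but 12 had a fold change above 0 (median 1.33 beside -0.16 for all genes). Between bSCs and dSCs 0 of the 13 were called and 0 had a fold change above 0 (median -1.22 beside -0.07 for all genes). In the order of these comparisons edgeR called 5.32%, 14.7% and 5.43% of all genes. Of 12 fibroblast and perineurial markers, 3 were called lower and 0 higher in bSCs than in iSCs: Dcn, Lum and Slc2a1 (log2 fold changes -2.93, -1.95 and -1.97). Dcn and Lum were also lower in bSCs than in dSCs (log2 fold changes -2.87 and -3.25, adjusted p = 0.00917 and 0.00925 from edgeR), and of the endothelial markers Kdr was higher (2.96, 0.0430). Their part in the differences of Cdk4 and of the E2F list was not tested.

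The single-nerve time course asked when after injury these changes appeared. Ccnd1 was at 187, 148, 196, 262 and 140 CPM in the 5 iSC libraries. It was at 155, 120 and 197 CPM in dSCs of day 1, 1 of them below the iSC range, and at 191, 424 and 394 CPM on day 2. On days 4, 6 and 8 the dSC libraries were at 370, 493 and 471, then 471, 439 and 520, then 395, 385 and 362 CPM, all above every iSC library. Day 10 dSCs had 407, 284 and 698 CPM. Against iSCs, dSCs of days 1 and 2 together did not pass the test (log2 fold change 0.30, 95% interval from -0.30 to 0.91), and in that comparison 0 of the 10 members passed with edgeR or DESeq2, and 0 had an unadjusted p under 0.05, where 0.677% of all 15519 genes tested were called by edgeR and 9.91% had such an unadjusted p.

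In dSCs of days 4 to 10, Ccnd1 was between 284 and 698 CPM (median 423, n = 12), with each library above each iSC library. The increase was 2.36-fold (log2 fold change 1.24 with an SE of 0.29, edgeR's adjusted p = 0.0112), and Ccnd1 was the 1 member called, where 5.32% of all genes were. It was also the 1 member whose dSC libraries were all above those of iSCs, against 1.22% of all genes. In bSCs of days 4 to 10, Ccnd1 was between 131 and 785 CPM (median 381, n = 12), with 1 library of day 4 below all iSC libraries. It was 2.08-fold higher than in iSCs (log2 fold change 1.06 with an SE of 0.29, edgeR's adjusted p = 0.0187). Without both iSC libraries of few detected genes the log2 fold changes were 1.17 and 0.98 and the adjusted p 0.0727 and 0.0889, and in a fit of the bSC and iSC libraries alone the latter was 0.0791. The difference between late (days 4 to 10) and early (days 1 and 2) dSCs was 0.93 (SE 0.27) on the log2 scale with an adjusted p of 0.0542 from edgeR and 0.00397 from DESeq2. With edgeR 0 members passed that comparison, 2 had an unadjusted p under 0.05 and DESeq2 called 1, where edgeR called 2.24% of all genes and 16.3% had an unadjusted p under 0.05.

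**Figure D3:**
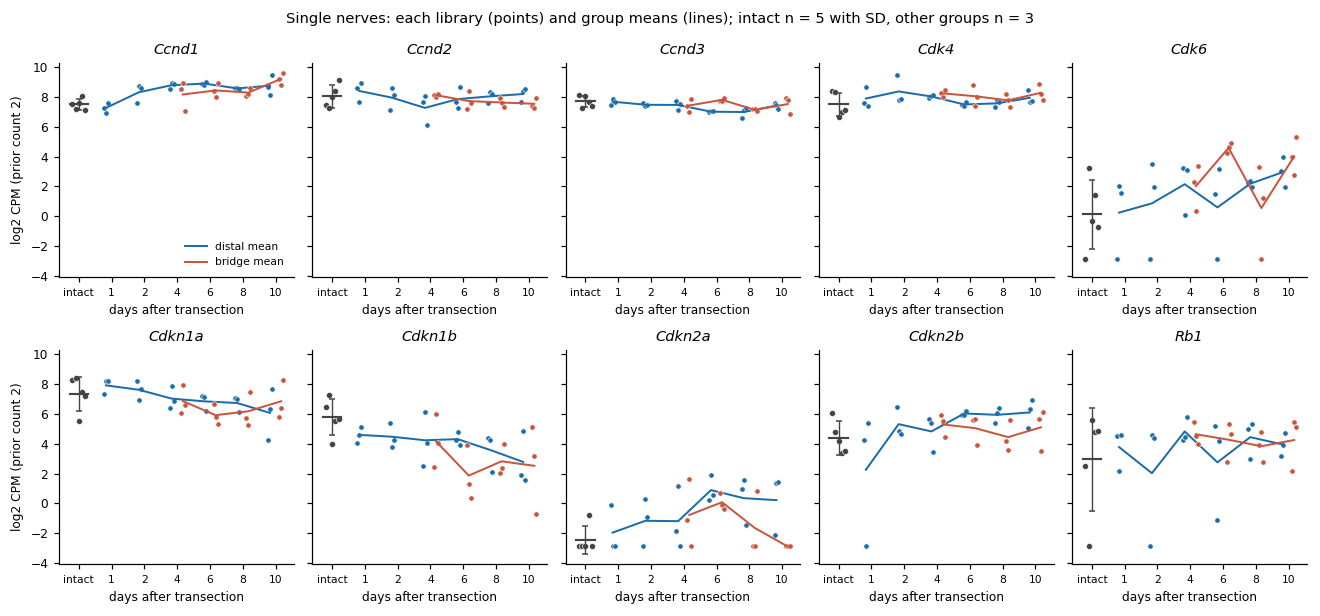
Log2 CPM of the 10 members in single nerves, with days after transection, evenly spaced, on the x axis and intact nerves at the left. Points are libraries, lines join the group means of dSCs (blue) and bSCs (red), and bars at the left are SDs of 5 iSC libraries; Ccnd1 has group means of 157 CPM on day 1 and 445 CPM on day 4 in dSCs, and Cdkn1b is highest in iSCs.

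Ccnd2 and Ccnd3 did not pass the test in any single-nerve comparison. Ccnd2 spread from 153 to 559 CPM among iSCs alone and from 68.1 to 407 CPM in dSCs of days 4 to 10. Ccnd3 was at 215 ± 56.2 CPM (SD, n = 5) in iSCs and at 152 ± 32.8 CPM (SD, n = 12) in dSCs of days 4 to 10, a log2 fold change of -0.52 (95% interval from -0.94 to -0.09) with an adjusted p of 0.160 from edgeR. In pooled nerves its fold change in dSCs had the other sign and also failed the test.

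Cdk4 did not pass in single nerves. It was at 330, 320, 101, 128 and 141 CPM in iSCs, and the pair of high values belonged to the libraries with few detected genes. The 4 libraries with the fewest detected genes held 320 to 711 CPM of Cdk4, against a median of 220 CPM in the other 31 (from 101 to 469 CPM), a grouping made after the values were seen. In bSCs of days 4 to 10 Cdk4 was between 157 and 469 CPM (median 270, n = 12), with a log2 fold change over iSCs of 0.47 (95% interval from -0.17 to 1.11, adjusted p = 0.425 from edgeR) that became 1.21 (adjusted p = 0.0555) without those iSC libraries. In dSCs of days 1 and 2 it likewise went from 0.63 to 1.42 (adjusted p = 0.618 and 0.103 from edgeR). Cdk6 had 0 counts in 5 of the 35 libraries and its group means were highest in bSCs of day 6, at 18.5, 24.9 and 29.7 CPM, and of day 10, at 15.9, 6.63 and 38.9 CPM. The bSC libraries of days 4 and 8 lay between 0 and 10.14 CPM, so no steady course over days was seen. A count of 0 at these depths allows up to 3 counts of the library's total.

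Of the CIP/KIP inhibitors, Cdkn1b passed the test in bSCs of single nerves. It was at 87.9, 155, 15.6, 45.5 and 50.8 CPM in iSCs, and bSCs of days 4 to 10 held from 0.484 to 63.5 CPM (median 7.06, n = 12). The groups overlapped, and the decrease was 5.89-fold (log2 fold change -2.56 with an SE of 0.70, edgeR's adjusted p = 0.0202). With Ccnd1, Cdkn1b made 2 members called between bSCs and iSCs, where 9.34% of all genes were called, and no member was without overlap (0.599% of genes were above and 0.638% below). The Cdkn1b call was lost without iSC replicate 1, the library with the fewest detected genes (log2 fold change -2.03, adjusted p = 0.0953 from edgeR), without both low iSC libraries (-1.60, adjusted p = 0.303) and in a fit of the bSC and iSC libraries alone (adjusted p = 0.0635). In dSCs of days 4 to 10 Cdkn1b was between 2.81 and 70.3 CPM (median 17.8), with a log2 fold change of -1.97 and an adjusted p of 0.0944 from edgeR and 0.0438 from DESeq2. In dSCs of days 1 and 2 it was at 13.6 to 42.0 CPM (log2 fold change -1.51, 95% interval from -3.19 to 0.17), which did not pass the test. Without iSC replicate 1 the log2 fold change of late dSCs was -1.41 (adjusted p = 0.365), and without both low iSC libraries that of early dSCs was -0.51 (adjusted p = 0.894 from edgeR, and 0.763 for late dSCs).

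Cdkn1a did not pass in single nerves. It was at 302, 333, 46.1, 174 and 146 CPM in iSCs, at 124 to 296 CPM in dSCs of days 1 and 2 and at 18.6 to 229 CPM in dSCs of days 4 to 10. The log2 fold change of late dSCs was -0.77 over iSCs (95% interval from -1.69 to 0.14) and -0.96 over early dSCs (95% interval from -1.82 to -0.10, adjusted p = 0.257 from edgeR), and that of bSCs was -0.93 over iSCs (adjusted p = 0.221). The highest pair of iSC values belonged to the libraries with few detected genes, and without both the log2 fold change over iSCs was -0.02 in late dSCs and -0.19 in bSCs. Without iSC replicate 1 alone that of late dSCs was -0.46. Single-nerve iSCs, at 200.2 ± 118 CPM (SD, n = 5), held less Cdkn1a than pooled iSCs, at 607 ± 231 CPM (SD, n = 4), a difference between experiments that were normalized separately and not tested against each other.

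Neither INK4 gene passed a test in single nerves. Cdkn2b was at 67.1, 27.98, 18.1, 10.13 and 11.01 CPM in iSCs and was between 10.7 and 120 CPM (median 61.0, n = 12) in dSCs of days 4 to 10, where days 6, 8 and 10 had the highest group means of the course. On day 6 the libraries were at 60.4, 61.6 and 73.9 CPM. The log2 fold change of late dSCs over iSCs was 1.10 (95% interval from -0.29 to 2.50) with an adjusted p of 0.411 from edgeR. It was 1.83 without iSC replicate 0, which held the highest iSC value, and 2.17 without both low iSC libraries (adjusted p = 0.230 and 0.245 from edgeR). In bSCs the range was 11.1 to 69.4 CPM, and the log2 difference from dSCs at the same days was -0.65 (95% interval from -1.67 to 0.36, adjusted p = 0.880). One library of day 1 dSCs held 0 counts of Cdkn2b, where its partners of that day held 386 and 480. Cdkn2a was counted in 1 of 5 iSC libraries, with 9 counts, in 11 of the 12 dSC libraries of days 4 to 10, with up to 59 counts, and in 6 of 12 bSC libraries, with up to 31 counts. All 3 bSC libraries of day 10 were at 0. Its difference between bSCs and dSCs had an unadjusted p of 0.0379 and an adjusted p of 0.498 from edgeR, and no fold is given at these counts. Rb1 ranged from 0 to 54.5 CPM over the 35 libraries without a called difference.

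Between bSCs and dSCs of days 4 to 10, edgeR called 0 members and 0.103% of all genes, with 1 member (Cdkn2a) and 9.01% of genes at an unadjusted p under 0.05, and DESeq2 called 0 members. Blocking on the animal, over 10 animals that gave both regions, edgeR also called 0. The Cdk4 difference, averaged over days 4 to 10, did not pass in single nerves (log2 fold change 0.37, 95% interval from -0.11 to 0.85). The pooled estimate of 1.03 (95% interval from 0.58 to 1.47) was of day 6 only, so the values are not of the same quantity, and their intervals overlap. On day 6 the single-nerve means of log2 CPM were 8.05 (SD 0.68) in bSCs and 7.49 (SD 0.13) in dSCs. Ccnd1 differed by -0.18 (95% interval from -0.59 to 0.23). A test of any difference between days in dSCs, by edgeR's quasi-likelihood F test, called 0 members and 0.0644% of all genes. There 1 member, Ccnd1, and 6.86% of genes had an unadjusted p under 0.05. The adjusted p of Ccnd1 was 0.590 from edgeR, and DESeq2 called 1 member. Whether the bSC to dSC difference changed with the day was tested as an interaction, which called 0 members and 0 of all genes in edgeR (0%), with 0 members and 488 genes (3.14%) at an unadjusted p under 0.05. DESeq2 called 0 members and 6 genes for it.

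The make-up of the D cyclins was compared per length of exon, as a description with no test. Ccnd3 was the main D cyclin of pooled iSCs, with 49.3% ± 4.50 (SD, n = 4) of the summed D-cyclin level, and Ccnd1 held 25.7% ± 3.72. In dSCs Ccnd1 held 69.2% ± 5.35 and in bSCs 70.7% ± 10.7 (SD, n = 4 each), and the summed level went from 99.5 ± 21.5 CPM per kb to 342 ± 89.9 and 329 ± 47.2 CPM per kb. Single-nerve iSCs had nearly the same Ccnd1 share, 25.1% ± 5.36 (SD, n = 5), and the share was 20.8% ± 2.29 on day 1, 40.0% ± 7.46 on day 2, 51.3% ± 7.67 on day 4, 55.4% ± 3.67 on day 6, 49.1% ± 6.87 on day 8 and 46.7% ± 11.8 on day 10 in dSCs (SD, n = 3 each). The shares of day 2 and of day 4 overlapped within their SDs, and those of day 1 and iSCs did too. In bSCs the share was 39.0% ± 19.4 on day 4 and 56.5% ± 10.9 on day 10. Cdk4 held most of the Cdk4 plus Cdk6 level throughout, from 86.8% to 100% in every library of injured single nerves and from 92.3% to 97.1% in pooled iSCs. The summed D cyclins stood in a ratio of 0.224 to 0.840 to Cdkn1a plus Cdkn1b in the pooled iSC libraries, of 3.53 to 4.70 in dSCs and of 3.40 to 8.84 in bSCs. In single-nerve iSCs this ratio spread from 0.727 to 8.87, overlapping the injured groups.

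**Figure D4:**
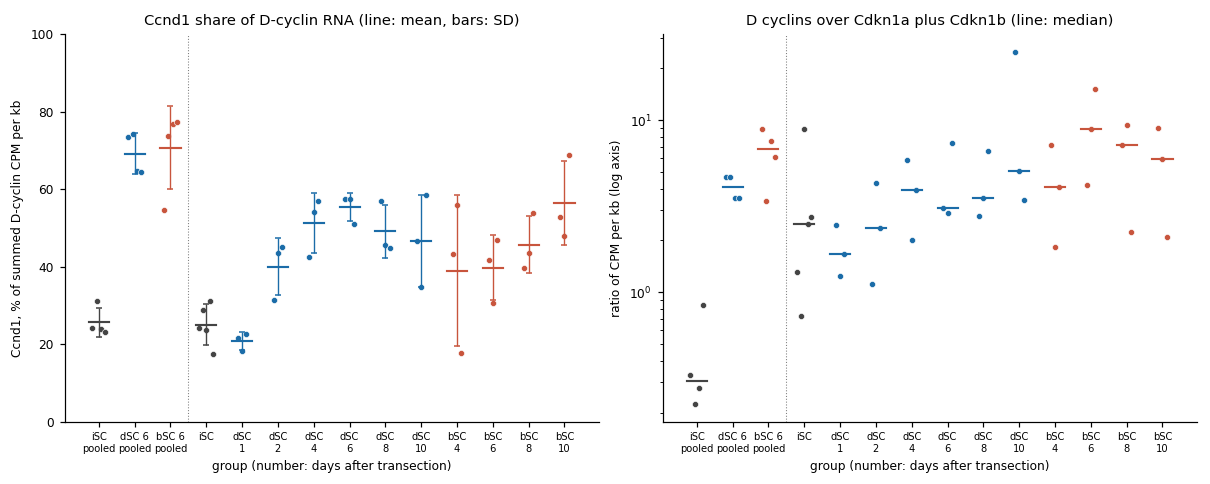
Left, share of Ccnd1 in the summed CPM per kb of the D cyclins by group, with libraries as points, means as lines and SDs as bars; right, ratio of summed D cyclins to Cdkn1a plus Cdkn1b on a log axis, with medians as lines. Pooled libraries are left of the dotted line; the Ccnd1 share is near 25% in both sets of iSCs and between 54.8% and 77.4% in pooled bSCs, and the ratio separates pooled but not single-nerve iSCs from injured SCs.

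Over the 11 single-nerve groups, the order of mean log2 CPM put Ccnd1 highest in bSCs of day 10 (9.21), then in dSCs of days 6, 4, 10 and 8 (8.89 to 8.57), and lowest in iSCs (7.51) and dSCs of day 1 (7.27). Neighbours in this order overlapped within their SDs at every step. Cdkn1b was highest in iSCs (5.78) and lowest in bSCs of day 6 (1.86), and Cdkn2b was highest in dSCs of days 10, 6 and 8 (6.09 to 5.94), again with every neighbouring pair within its SDs. The same held for Ccnd2, Cdk4, Cdk6, Cdkn1a, Cdkn2a and Rb1, whereas for Ccnd3 the groups at 7.42 (dSCs of day 10), 7.13 (bSCs of day 8) and 7.01 (dSCs of day 6) were separated by more than their SDs.

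The genes whose log2 CPM was most like a member's over the 35 single-nerve libraries were found among the 15519 genes tested. Closest to Ccnd1 were Tubb2b, Sema4f and Gpc1 (Pearson's r of 0.834, 0.834 and 0.8291), to Cdk4 Nudcd2, Eif5a and Hmgn2 (0.838, 0.830 and 0.8285), to Cdkn1a Sec11c, Eif1 and Fth1 (0.870, 0.846 and 0.827) and to Cdkn1b Igfbp6, Dnajc4 and Fdx1 (0.783, 0.770 and 0.763). For Cdkn2b they were Synpo, Vezf1 and Mark3 (0.795, 0.788 and 0.785) and for Rb1 Cactin, Prpf8 and Atl2 (0.886, 0.853 and 0.852). The remaining members had lower values, with a closest gene at 0.749 for Ccnd2 (Mylk), 0.681 for Ccnd3 (Gid8), 0.697 for Cdk6 (Gars) and 0.747 for Cdkn2a (Apba2). Between members the highest r was 0.510, for Cdkn1a and Cdkn1b, and the lowest -0.494, for Cdk4 and Rb1. The points share libraries, depth and the 4 libraries of few genes, so these values describe the set and carry no p.

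Among the E2F target and proliferation genes of single nerves, 2 of 24 were higher in dSCs of days 4 to 10 than in iSCs and 0 lower, namely Tk1 (log2 fold change 3.30, adjusted p = 0.0321 from edgeR) and the replication helicase subunit Mcm5 (2.73, 0.0330), and the list's median was 1.60 beside -0.08 for all genes. In bSCs 10 were higher and 0 lower (median 2.41 beside -0.15), with Mcm5 (3.42, 0.00789), Rrm2 (2.77, 0.00895), Tk1 (4.02, 0.00924) and Mcm6 (2.83, 0.0103) at the smallest adjusted p. In early dSCs 0 passed, with a median of 1.49 beside -0.09 for all genes. Between bSCs and dSCs 0 passed, with 23 of 24 fold changes above 0 and a median of 0.94 beside -0.03. Of the other G1 and S regulators, 1 was called in bSCs over iSCs, Ccna2 (log2 fold change 1.65, adjusted p = 0.00648), and 0 in dSCs of either period. Of the p53 pathway genes, Perp alone was called, lower in late dSCs (-3.65, 0.0241) and in bSCs (-6.05, 0.000498) than in iSCs, and of the inducers and mitogen readouts none passed edgeR's test in any single-nerve comparison (0 of 16). Markers of other cell types moved with these groups. Of 13 macrophage markers, 12 were called higher in late dSCs and in bSCs than in iSCs, and 7 in early dSCs. Of 10 endothelial markers, 4 were called lower in late dSCs and 2 in bSCs, with Cldn5 at log2 fold changes of -3.83 and -3.76. Of 12 fibroblast and perineurial markers, 1 was called higher and 1 lower in late dSCs, and 1 higher and 3 lower in bSCs. The higher one in bSCs was Col1a1 (log2 fold change 2.24), and the lower ones were Slc2a1 (-3.53), Dcn (-1.95) and Itgbl1 (-1.90). Their part in the results was not tested. Beside the list counts of single nerves, edgeR called 0.677% of all genes in early dSCs, 5.32% in late dSCs and 9.34% in bSCs, each over iSCs. Between bSCs and dSCs it called 0.103% of all genes.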

How the data were processed

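Tomato+ Schwann cells of mouse sciatic nerve were profiled by RNA sequencing (Smart-seq2) in 12 pooled and 35 single-nerve libraries. The authors aligned reads with TopHat2 (2.0.11) to mm9 and used HTSeq to count reads on genes; the deposited values are raw counts, in 1 file or a pair of lane files a library. Rat libraries were not analysed here.

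Lanes were summed, and the 92 ERCC spike-ins and HTSeq category rows (reads on no feature were 52.5% to 60.5% of those not multiply aligned) were left out. Each experiment was fitted once, with all its groups, in edgeR 4.0.16 (R 4.3.3): TMM factors, filterByExpr, quasi-likelihood tests, Benjamini-Hochberg adjustment over all genes, threshold 0.05. Log2 CPM used a prior count of 2, levels per kb used exon lengths of the mm9 annotation, and intervals are 1.96 SE. This normal quantile makes them narrower than the quasi-likelihood test would. For Cdkn1a in single-nerve bSCs over iSCs, the interval was from -1.84 to -0.02, with an unadjusted p of 0.0541 from that test. DESeq2 1.42.0, other normalization, filters, samples and blocks, and leaving out each library, were alternatives. Per-sample columns left unmapped numbered 0. Lane files agreed near sampling noise, and no libraries were identical. The scripts were tested on simulated data.

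Libraries were paired by the animal given in the labels: it was shared by same-numbered pools of different regions and by bSCs and dSCs of single nerves, whereas title numbers repeat across days and intact nerves with different animals. In pooled libraries the deviations of paired libraries correlated by -0.0143 on average (10 pairs), and in single nerves by 0.157 (10 pairs, from -0.0624 to 0.677). Libraries of different regions and different animals correlated by 0.00448 in pooled nerves (38 pairs). In single nerves of the same day they correlated by -0.0677 (23 pairs), below the paired ones. The block is an alternative here.

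The members, lists and comparisons were chosen with earlier results of these data known. Named list genes were up to 4 per list and comparison, those with the smallest adjusted p.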

Additional observations from a re-analysis of the deposited data

Results flagged for a closer look

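In 40 sets of values, each of 1 member in 1 group of 4 or 5 libraries, 5 had a library whose distance from the rest exceeded Dixon's limit. For independent sets chance gives about 1 in 20, but these sets share libraries, so that rate is no measure for them. Ccnd1 stood at 71.6 CPM in pooled iSC replicate 4, with the other 3 libraries at 101 to 108 CPM, and all dSC and bSC libraries remained far above it. In pooled bSC replicate 2, Cdk6 was at 14.4 CPM where the others were at 29.3 to 32.2 CPM, and Rb1 was at 3.95 CPM where they were at 19.3 to 21.1 CPM. Cdkn2a was counted in a single iSC library of each experiment, at 0.468 CPM (6 counts) in pooled replicate 1 and 0.458 CPM (9 counts) in single-nerve replicate 4, with the others at 0. Where all others are at 0, any count in a library exceeds the limit, so the flags of Cdkn2a carry no weight.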

How the results depend on the processing

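In pooled nerves the 4 calls in bSCs against iSCs were made under every alternative run, and leaving out 1 library gave 4 to 4 members. For dSCs against iSCs DESeq2 called 5 members in place of 3, and leaving out 1 library gave 2 to 4. For bSCs against dSCs DESeq2 and a fit of only those groups called 2 in place of 1, and leaving out 1 library gave 0 to 2. With the replicate block, by pool number, 0 members were called there: Cdk4 had a log2 fold change of 1.01 and edgeR's adjusted p of 0.0604, and Cdkn2b lost its call in dSCs against iSCs (1.92, 0.122). The block changed no other member call, including those between bSCs and dSCs of the same animals in single nerves. The Ccnd1 difference between bSCs and dSCs (-0.03) changed sign to 0.09 without bSC replicate 1, 0.05 without dSC replicate 1 and 0.16 without dSC replicate 2, and ranged from -0.20 to 0.16 over the fits that left out 1 library. No cause was tested.

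In single nerves late dSCs against iSCs gave 2 members with DESeq2 in place of 1 (1 to 1 without single libraries). For bSCs against iSCs, 1 in place of 2 was called under the study's filter on genes, of 100 counts in 85% of libraries. That filter, applied without the study's removal of libraries, drops Cdk6, Cdkn1b, Cdkn2a and Rb1. A fit of bSCs and iSCs alone gave 0 (1 to 2 without single libraries). Without iSC replicates 0 and 1, an alternative added after the data were seen, both comparisons gave 0. Late against early dSCs gave 1 member (Ccnd1) in place of 0 with DESeq2, with its size factors in edgeR, under the study's filter and in a fit of only those groups (0 to 1 without single libraries). The test across days gave 1 with DESeq2 in place of 0.

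The number of genes called varied more: with the replicate block or with DESeq2, 287 or 1393 in place of 732 for pooled dSCs against iSCs, 968 or 3114 in place of 2022 for bSCs against iSCs, and 236 or 1939 (485 in a fit of only those groups) in place of 746 for bSCs against dSCs. In single nerves DESeq2 gave 560 in place of 105 for early dSCs (66 without iSC replicates 0 and 1, 2 in a fit of only those groups), 1650 in place of 826 for late dSCs (269 without those replicates), 583 in place of 16 between bSCs and dSCs (0 with the animal block, 25 with DESeq2 size factors in edgeR, 30 with no filter, 8 under the study's filter), 1127 in place of 347 between late and early dSCs, 249 in place of 10 across days (17 under the study's filter and in a fit of only those groups) and 6 in place of 0 for the interaction (1 in a fit of only those groups). For bSCs against iSCs 1449 became 541 in a fit of only those groups, 723 under the study's filter and 840 without those replicates. Leaving out 1 library also moved these counts: 310 (without iSC replicate 1) to 1007 for pooled dSCs against iSCs, 1318 (without iSC replicate 1) to 2104 for bSCs against iSCs, 325 (without dSC replicate 5) to 800 for bSCs against dSCs, and in single nerves 30 (without dSC replicate 2 of day 1) to 116 for early dSCs, 416 (without iSC replicate 0) to 953 for late dSCs, 1019 to 1642 for bSCs against iSCs, 3 to 97 for bSCs against dSCs, 34 (without dSC replicate 0 of day 2) to 480 between late and early dSCs, 3 to 13 across days and 0 to 1 for the interaction. Low counts limit Cdkn2a, Cdk6 and, in part, Rb1.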
